A study of Homo sapiens with 6 samples.

Results

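APC is best known as a brake on Wnt signalling, but the protein also carries a second set of binding partners that belong to the cytoskeleton. The genes of 10 such partners were followed here: the microtubule end-binding proteins MAPRE1, MAPRE2 and MAPRE3, the microtubule-anchoring protein CLASP2, the kinesin adaptor KIFAP3, the polarity scaffolds DLG1 and SCRIB, the exchange factor ARHGEF4, the scaffold IQGAP1 and the formin DIAPH1. They were chosen by name as known partners of the protein and are 10 of the 24462 gene symbols in the count files. Each was found as a single entry in every library.

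The data are 3 libraries of 1CT, an immortalized line of human colonic epithelial cells (HCEC), and 3 libraries of 1CT-A, the same line with APC knocked down. The 1CT libraries carry the genotype label WT. No cells were treated, and both lines grew in the same medium with 20 ng/mL EGF, 2% FBS, insulin, hydrocortisone, transferrin and selenite. The labels name neither an shRNA nor a control shRNA for these libraries, and whether 1CT-A is a single clone is not given in the sources used here. Nothing says that the libraries came from separate cultures, so the p-values below measure only the spread between these libraries, which may be technical. RNA was counted near the 3′ ends of transcripts in bulk cells, and the level of a gene is given as CPM, its counts scaled to a common library total. In bulk RNA, fewer cells with a transcript and less of it per cell cannot be told apart.

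Much of what APC does at the cell edge runs through these partners. The end-binding protein EB1, the product of MAPRE1, rides on growing microtubule ends and binds the carboxy terminus of APC, and the very end of that terminus docks on PDZ domains of DLG1 and SCRIB. The armadillo repeats in the amino-terminal part of APC take up KIFAP3, which links APC to the kinesin-2 motor for transport along microtubules, ARHGEF4 (also called Asef), which is released from autoinhibition when it binds APC, and IQGAP1. DIAPH1 (mDia1), a formin, works with EB1 and APC to stabilize microtubules and with APC to start actin filaments. In intestinal epithelium these contacts are known for their part in cell migration, spindle orientation and polarity. All of this concerns proteins, whereas the values below are transcript levels.

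The 1CT libraries held 7788679 to 8452258 counts and the deeper 1CT-A libraries 11158108 to 12602988. A count of 3, the smallest taken as visible, therefore stood for 0.355 to 0.385 CPM in a 1CT library and for 0.238 to 0.269 CPM in a 1CT-A library. APC itself was at 49.3, 43.8 and 46.6 CPM in 1CT and at 31.5, 30.02 and 34.4 CPM in 1CT-A, a fall to 0.668-fold (log2 fold change −0.58, SE 0.09, edgeR adjusted p = 1.8e-04), so the knocked-down transcript was lower in each library labelled as depleted and still counted in all of them. Of 11 markers of colon epithelium, 7 had at most 3 counts in every library, and EPCAM, VIL1, CDX1 and MUC2 were at 0 throughout. The summed level of the 11 was 13.4 to 17.4 CPM across the 1CT libraries and 3.23 to 7.28 CPM across the 1CT-A libraries, and KRT18 and KRT19 were called lower. The 9 markers of fibroblasts and mesenchyme summed to 4710 to 5750 CPM (1CT) and 4380 to 4700 CPM (1CT-A), with 2 called higher and 4 lower, so the labelled cell type was not borne out by these markers. The summed markers of endothelium (3 genes) reached at most 0.514 CPM, those of blood (4 genes) 10.9 to 14.4 CPM (1CT) and 8.49 to 10.1 CPM (1CT-A), and those of nerve (3 genes) 112 to 114 CPM (1CT) and 93.1 to 102 CPM (1CT-A), with 1 gene called lower in each of the latter lists. All 12 proliferation genes listed were called higher in 1CT-A, with summed levels of 3220 to 3320 CPM against 1610 to 1770 CPM. The part of this difference in the values of the partner genes was not tested.

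The partners did not move as a block. MAPRE1 and CLASP2 rose, DLG1, DIAPH1 and ARHGEF4 fell, and MAPRE2, MAPRE3, KIFAP3, SCRIB and IQGAP1 were not called. A gene was called where the comparison of both lines by edgeR's quasi-likelihood test gave a Benjamini-Hochberg adjusted p under 0.05 over the 12514 genes tested. All 10 partners passed the filter on low counts, ARHGEF4 only through its counts in 1CT, so its call is a description. With 5 of 10 called, ARHGEF4 included, the partners lay near the background. Of all genes tested, 25.0% were called higher and 26.0% lower, or 51.0% together. The groups did not overlap in CPM for 5 partners, against 59.7% of all genes, and 1 partner, ARHGEF4, passed a 2-fold change with an unadjusted p under 0.01, against 13.4% of all genes. The median log2 fold change of the partners was −0.05 beside −0.007 over all genes, and their median absolute change was 0.29 beside 0.36. Calls among the partners were thus about as common as among all genes tested.

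**Figure D1:**
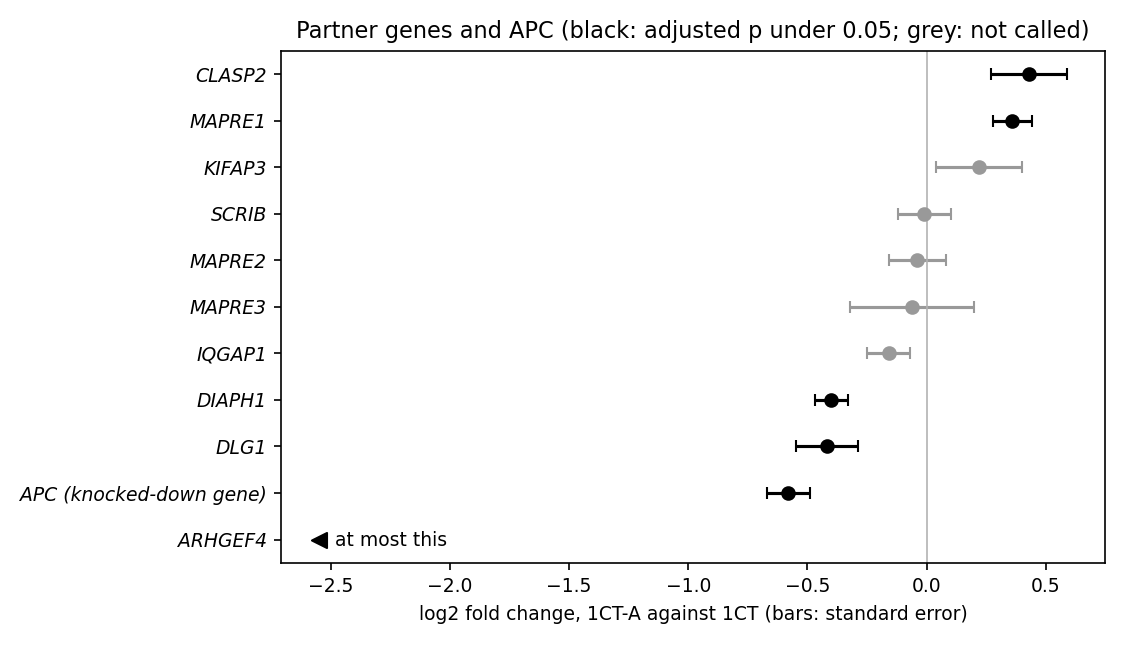
Log2 fold change of each partner gene and of APC, 1CT-A against 1CT, with its standard error; black marks an adjusted p under 0.05 and grey an uncalled gene, and the arrow gives the bound for ARHGEF4, which has no count in 1CT-A. MAPRE1 (0.36) and CLASP2 (0.43) lie to the right of 0, and DIAPH1 (−0.40), DLG1 (−0.42) and APC (−0.58) to the left.

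The sequence just upstream of the annotated starts is shown for MAPRE1 and DIAPH1, the most abundantly counted partners to rise and to fall, and for ARHGEF4, the partner without a count in 1CT-A. The stretches are from RefSeq on GRCh38.p14, lie within the 250 bases before a start and were trimmed of bases that belong to an annotated exon. They are written 5′ to 3′ on the gene's own strand, with each CG dinucleotide in capitals.
MAPRE1, chr20:32819704-32819953, plus strand: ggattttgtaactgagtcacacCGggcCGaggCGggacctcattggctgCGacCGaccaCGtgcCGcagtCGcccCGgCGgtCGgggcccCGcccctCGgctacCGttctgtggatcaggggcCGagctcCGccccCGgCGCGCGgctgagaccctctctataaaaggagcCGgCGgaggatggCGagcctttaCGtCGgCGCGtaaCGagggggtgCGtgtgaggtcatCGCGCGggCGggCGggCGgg
DIAPH1, chr5:141619056-141619250, minus strand: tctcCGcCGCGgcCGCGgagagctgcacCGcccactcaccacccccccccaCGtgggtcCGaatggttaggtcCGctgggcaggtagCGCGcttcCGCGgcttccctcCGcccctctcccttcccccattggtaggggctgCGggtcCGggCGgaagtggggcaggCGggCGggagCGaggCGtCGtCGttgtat
ARHGEF4, chr2:130963405-130963641, plus strand: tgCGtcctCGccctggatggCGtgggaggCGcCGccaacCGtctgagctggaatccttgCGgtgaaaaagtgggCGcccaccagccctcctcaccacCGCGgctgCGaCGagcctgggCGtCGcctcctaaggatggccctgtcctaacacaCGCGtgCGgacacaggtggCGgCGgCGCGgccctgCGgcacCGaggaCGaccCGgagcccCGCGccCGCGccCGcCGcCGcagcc
The MAPRE1 stretch of 250 bases ends at the start and holds 35 CG dinucleotides. The DIAPH1 stretch of 195 bases ends 55 bases before the start and holds 23, and the ARHGEF4 stretch of 237 bases ends 13 bases before the second of its listed starts and holds 32. All are rich in CG beside a median of 11 over 35116 such windows. The T-cell factor motif of Wnt target genes, searched on both strands as CTTTGAT or CTTTGAA, lies in none of these stretches and in 1 of the 18 windows of the 9 partners with one, a CLASP2 window, against 5.94% of all windows. Reads from the 3′ ends do not show which start was used.

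Of the end-binding proteins, MAPRE1 rose and its relatives were not called. MAPRE1 spans bases 32819954 to 32850405 of chromosome 20 (plus strand) in the GENCODE release 44 annotation of GRCh38, to which all gene positions here refer. It was at 95.2, 109.8 and 93.6 CPM in 1CT and at 130.5, 134.0 and 128.4 CPM in 1CT-A. Every 1CT-A library lay above every 1CT library, and the 1CT-A libraries lay close together. The means were 99.6 ± 8.92 CPM (SD, n = 3) and 131 ± 2.83 CPM (SD, n = 3), and edgeR gave a 1.28-fold rise (log2 fold change 0.36, SE 0.08, adjusted p = 0.00197). The annotation holds 3 processed pseudogenes named after MAPRE1, so reads of near copies could have been divided or added in the authors' counting.

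MAPRE2, which codes for EB2, had 18.7, 18.1 and 17.0 CPM in 1CT and 16.5, 16.7 and 20.5 CPM in 1CT-A. The groups overlapped, with the highest and the lowest of the 6 values both in 1CT-A, and the fitted change was −0.04 on the log2 scale (SE 0.12, edgeR adjusted p = 0.808). MAPRE3, which codes for EB3, the form known from nerve and muscle, was close to the limit of what this depth can resolve. It had 20 to 28 counts per library in 1CT (2.72, 2.42 and 3.60 CPM) and 32 to 34 in 1CT-A (3.05, 2.98 and 2.54 CPM). Its log2 fold change was −0.06 with an SE of 0.26 (edgeR adjusted p = 0.851), so a moderate change in either direction would not be visible. MAPRE1 therefore carried most of the reads of the family in both lines, a share taken up again below with the other families.

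**Figure D2:**
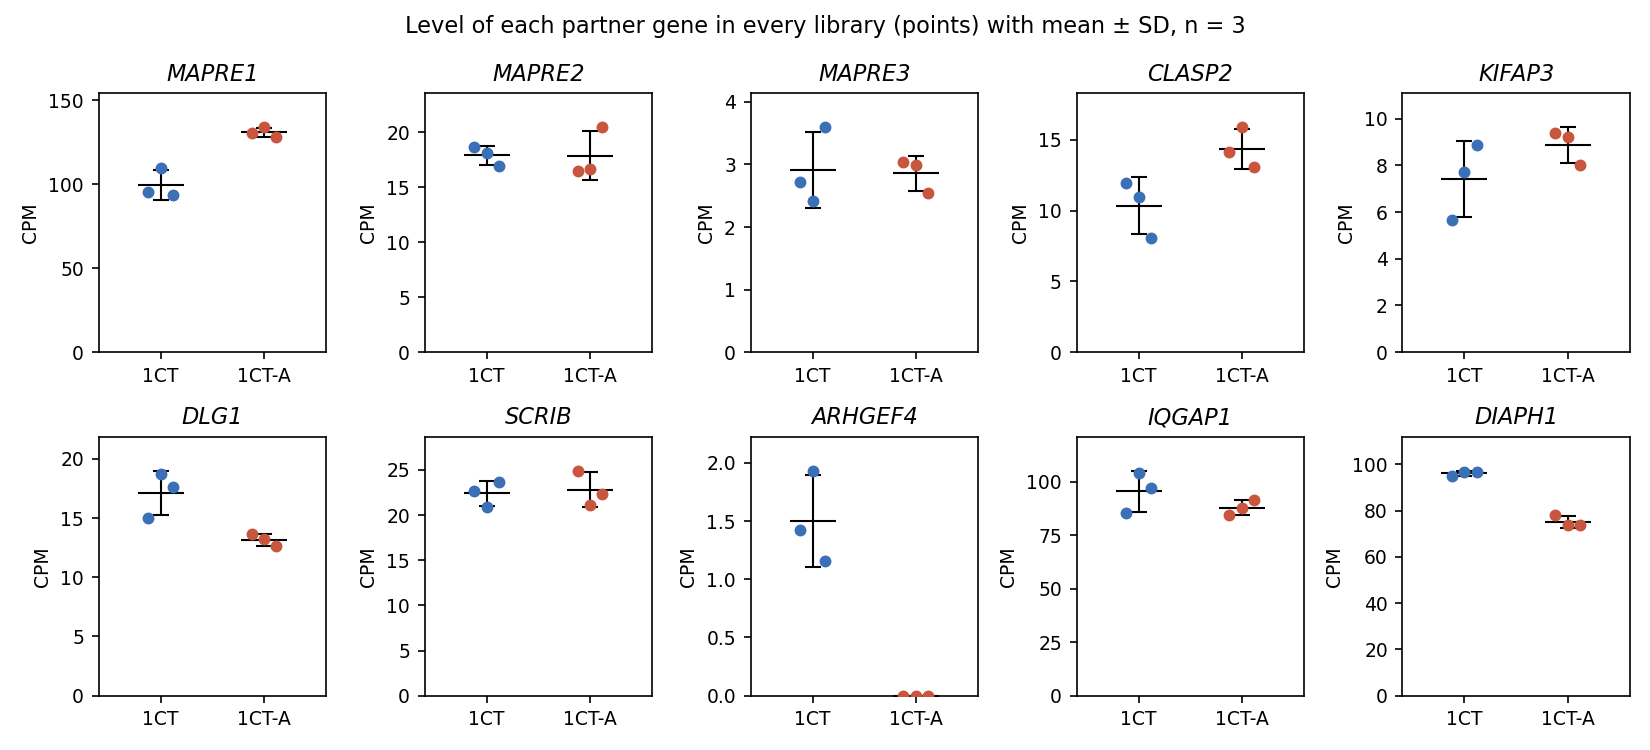
Level of each of the 10 partner genes in CPM (vertical axis, from 0) in the 3 libraries of 1CT (blue points) and of 1CT-A (red points), with black bars for the mean and its SD. MAPRE1 and CLASP2 lie higher in all 1CT-A libraries, DLG1 and DIAPH1 lower, ARHGEF4 is at 0 in 1CT-A, and the other 5 genes overlap between the lines.

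CLASP2 also rose, with a smaller margin. Its product holds microtubule ends at the cell cortex and binds the end-binding proteins. The gene spans bases 33496245 to 33718356 of chromosome 3 (minus strand), and its level was 11.95, 10.99 and 8.09 CPM in 1CT and 14.2, 15.9 and 13.1 CPM in 1CT-A. The groups did not overlap, although the highest 1CT and the lowest 1CT-A library were near each other. The means were 10.3 ± 2.01 CPM (SD, n = 3) and 14.4 ± 1.41 CPM (SD, n = 3), with a fitted 1.35-fold rise (log2 fold change 0.43, SE 0.16, edgeR adjusted p = 0.0341). The call was lost without 1CT replicate 3 (adjusted p = 0.0932), without 1CT-A replicate 1 (0.0655) or replicate 2 (0.121), with DESeq2 (0.0602), with upper-quartile scaling (0.0569) and after all libraries were thinned to one depth (0.0828). The change of CLASP2 thus stood at the edge of what 3 libraries a line can show.

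KIFAP3, the adaptor that joins the kinesin-2 motor to cargo and to APC, was not called. It had 5.68, 7.73 and 8.86 CPM in 1CT and 9.41, 9.22 and 8.01 CPM in 1CT-A, so that the lowest 1CT-A library fell below the highest 1CT library. The fitted change was 0.22 on the log2 scale (SE 0.18, edgeR adjusted p = 0.333). Of the motor subunits it works with, KIF3A and KIF3C were called and KIF3B was not. KIF3A, the motor subunit found in the usual kinesin-2 complexes, fell from 53.6 ± 8.4 to 31.3 ± 1.99 CPM (SD, n = 3 each; log2 fold change −0.82, SE 0.12, adjusted p = 7.4e-05). KIF3C fell from 6.58 ± 0.762 to 3.73 ± 0.416 CPM (SD, n = 3 each; log2 fold change −0.85, SE 0.20, adjusted p = 0.00304). KIF3B, the other usual partner of KIF3A, was at 95.7 ± 5.31 and 93.1 ± 4.48 CPM (SD, n = 3 each; log2 fold change −0.08, SE 0.08, adjusted p = 0.434). Whether the change of KIFAP3 differed from that of KIF3A was not tested. The homodimeric motor KIF17, outside the test for its low counts, had 7, 7 and 9 counts in 1CT and 2, 2 and 0 in 1CT-A, a level 8.24-fold higher in 1CT with a 95% interval from counting alone of 2.82 to 32.8.

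Of the polarity scaffolds, DLG1 fell and SCRIB was not called. Both proteins hold several PDZ domains and mark the basolateral side of epithelial cells. DLG1 spans bases 197042560 to 197299330 of chromosome 3 (minus strand). It was at 15.0, 18.7 and 17.6 CPM in 1CT and at 13.6, 13.3 and 12.6 CPM in 1CT-A, each 1CT-A library below each 1CT library. The means were 17.1 ± 1.89 CPM (SD, n = 3) and 13.2 ± 0.506 CPM (SD, n = 3), a fall to 0.749-fold (log2 fold change −0.42, SE 0.13, edgeR adjusted p = 0.0158). The call was lost without 1CT replicate 2 (adjusted p = 0.0638) or without 1CT-A replicate 3 (0.0665). The antisense gene DLG1-AS1 overlaps DLG1, though not its 3′ end. Since it is not given whether counting used the strand, reads of the pair cannot be told apart with certainty.

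SCRIB stood at 22.7, 20.9 and 23.6 CPM in 1CT and at 24.9, 21.2 and 22.4 CPM in 1CT-A. The libraries of the lines were interleaved, and the fitted change was −0.01 on the log2 scale (SE 0.11, edgeR adjusted p = 0.933). Its sign turned positive with library-size scaling and with no filter (0.03 in each) and after thinning (0.04), so no direction is given.

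The largest relative difference among the partners was in ARHGEF4, and it rested on few reads. ARHGEF4, which activates Rac1 and Cdc42 when APC binds it, spans bases 130836914 to 131047263 of chromosome 2 (plus strand). It had 12, 16 and 9 counts in 1CT, or 1.42, 1.93 and 1.16 CPM, and 0 counts in each of the deeper 1CT-A libraries. Against a floor of 3 counts per library, on average 0.257 CPM in 1CT-A, its level was at least 5.85-fold lower in 1CT-A. It was called by edgeR, but since it passed the filter only through the line in which it is higher, no p is given for it. At this depth that means a level under the floor and not the absence of the transcript. ARHGEF4 had 37 counts summed over 1CT, and of the 837 genes with 28 to 46 such counts, 15 (1.79%) were at 0 in every 1CT-A library. The summed level of 398 olfactory receptor genes, which are silent in most tissues, was also higher in 1CT (12.8 to 16.4 CPM) than in 1CT-A (5.47 to 5.83 CPM), and the part of such low background reads in the value of ARHGEF4 was not tested. The annotated gene SMIM39 overlaps the 3′ end of ARHGEF4, so that reads counted there could belong to either.

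Among other exchange factors, SPATA13 (Asef2), the closest relative of ARHGEF4, was at 3.19, 4.59 and 3.85 CPM in 1CT and at 6.90, 6.50 and 5.95 CPM in 1CT-A. Its groups did not overlap, and it rose by 0.69 on the log2 scale (SE 0.20, edgeR adjusted p = 0.0121). The call was lost without 1CT replicate 1 (adjusted p = 0.0543) and after thinning (0.0525). Thus ARHGEF4 was visible in 1CT alone while SPATA13 was counted in both lines and higher in 1CT-A. TIAM1, a Rac1 exchange factor, had 41, 59 and 66 counts in 1CT and 1, 1 and 0 in 1CT-A, a level 119-fold higher in 1CT with a 95% counting interval of 32.4 to 991. TIAM1 too passed the filter only through 1CT. Of the other Rac1 exchange factors listed, both named after their values were seen, ARHGEF7 fell by 0.57 on the log2 scale (SE 0.13, edgeR adjusted p = 0.00234) and VAV2 was at 0.11 (SE 0.08, adjusted p = 0.302). Counting intervals cover counting error only, since reads without molecular identifiers are not independent molecules.

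**Figure D3:**
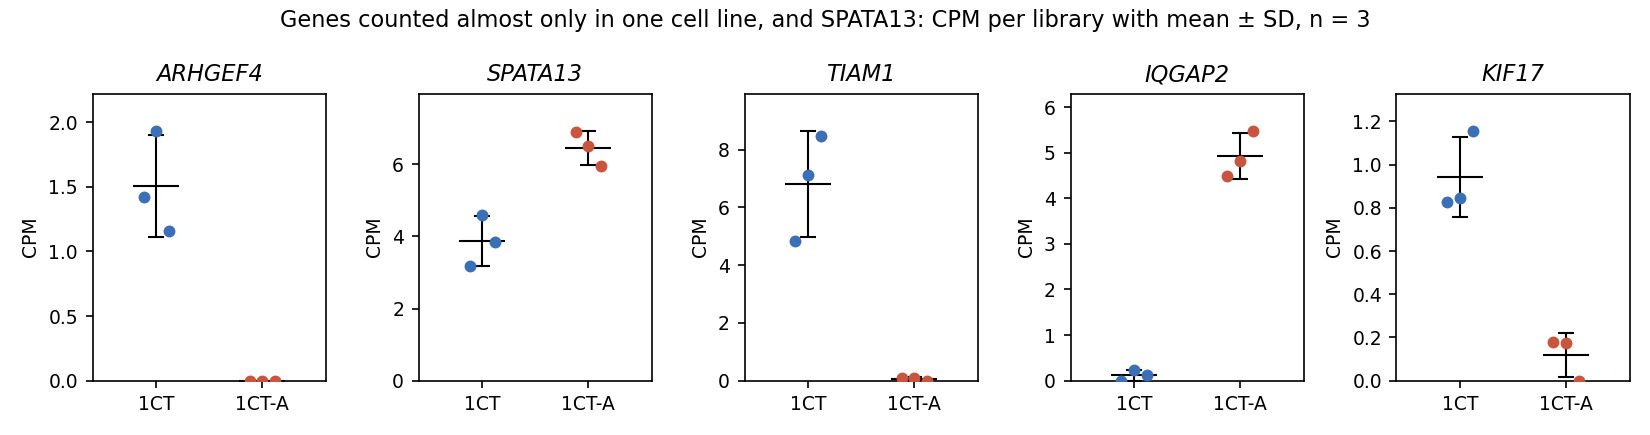
CPM per library (points; 1CT blue, 1CT-A red) with mean ± SD (n = 3) for ARHGEF4, its relative SPATA13, and 3 further genes with few counts in one line, each panel with its own axis from 0. ARHGEF4 and TIAM1 lie at or next to 0 in 1CT-A, IQGAP2 lies next to 0 in 1CT, KIF17 has at most 2 counts per 1CT-A library, and SPATA13 is counted in both lines and higher in 1CT-A.

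IQGAP1, a large scaffold that binds active Rac1 and Cdc42 and captures microtubule ends together with APC, was abundant in both lines and not called. It had 85.3, 104.3 and 97.2 CPM in 1CT and 84.7, 87.9 and 91.4 CPM in 1CT-A. The first 1CT library lay within the range of 1CT-A and the others above it, and the fitted change was −0.16 on the log2 scale (SE 0.09, edgeR adjusted p = 0.142). Without 1CT replicate 1 it was called lower (log2 fold change −0.24, adjusted p = 0.0407). Its relative IQGAP2, known from liver, differed far more. IQGAP2 had 0, 2 and 1 counts in 1CT and 50, 55 and 69 in 1CT-A, a level 40.5-fold higher in 1CT-A with a 95% counting interval of 13.6 to 198. It passed the filter on low counts only through 1CT-A, so its call is a description. Its level in 1CT-A was 4.48 to 5.48 CPM, and most reads of the family still fell on IQGAP1.

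DIAPH1 fell with little spread between libraries. The gene spans bases 141515016 to 141619055 of chromosome 5 (minus strand). Its level was 94.9, 96.7 and 96.8 CPM in 1CT and 77.9, 73.6 and 73.8 CPM in 1CT-A, with the libraries of each line close together and a wide gap between the lines. The means were 96.1 ± 1.08 CPM (SD, n = 3) and 75.1 ± 2.43 CPM (SD, n = 3), a fall to 0.76-fold (log2 fold change −0.40, SE 0.07, edgeR adjusted p = 6.4e-04). MAPRE1 and DIAPH1, whose proteins meet at stabilized microtubules, thus went in opposite directions. Of the GTPases that bind IQGAP1, RAC1 (log2 fold change −0.07, SE 0.06, adjusted p = 0.356) and CDC42 (−0.01, SE 0.07, adjusted p = 0.918), named after their values were seen, were not called by edgeR.

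Because several partners have close relatives, the share of each partner in the reads of its family was compared, a measure that does not depend on library size. Since reads come from transcript ends, counts were not scaled by length. MAPRE1 took 82.6% ± 1.4 of the reads of the end-binding genes in 1CT and 86.3% ± 1.3 in 1CT-A (SD, n = 3 each), a gain of 3.7 percentage points, while MAPRE2 went from 14.9% to 11.8%. IQGAP1 took 95.3% ± 0.33 and 89.2% ± 0.19 (SD, n = 3 each), a share that fell by 6.14 points as IQGAP2 went from 0.115% to 4.99%. DIAPH1 took 72.9% ± 0.93 and 69.5% ± 0.54 (SD, n = 3 each), with DIAPH3 at 15.5% and then 19.1%. None of these 3 shares overlapped between the lines, and each gave p = 0.1 (0.17 adjusted over 5 families) by exact permutation, two-sided, the smallest value open to groups of 3. This design cannot reach 0.05, so the shares are given as measured values.

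CLASP2 held 15.5% ± 3.6 of the CLASP reads in 1CT and 18.8% ± 1.4 in 1CT-A (SD, n = 3 each), a difference of 3.22 points (exact two-sided permutation p = 0.3). DLG1 held 7.48% ± 0.21 and 7.54% ± 0.75 of the DLG reads (SD, n = 3 each; exact two-sided permutation p = 0.9), although its level fell, because DLG4 fell as well. DLG4 went from 127.8 ± 17.7 to 77.4 ± 11 CPM (SD, n = 3 each; log2 fold change −0.76, SE 0.12, edgeR adjusted p = 1.2e-04). ACADVL overlaps the DLG4 gene on the opposite strand, though not the 3′ end of DLG4. Whether part of the DLG4 reads belongs to ACADVL was not tested. With DLG4 left out, a choice made after the data were seen, the share of DLG1 went from 17% ± 1.6 to 13.4% ± 0.57 (SD, n = 3 each), a decrease that did not overlap (exact two-sided permutation p = 0.1, the smallest possible).

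**Figure D4:**
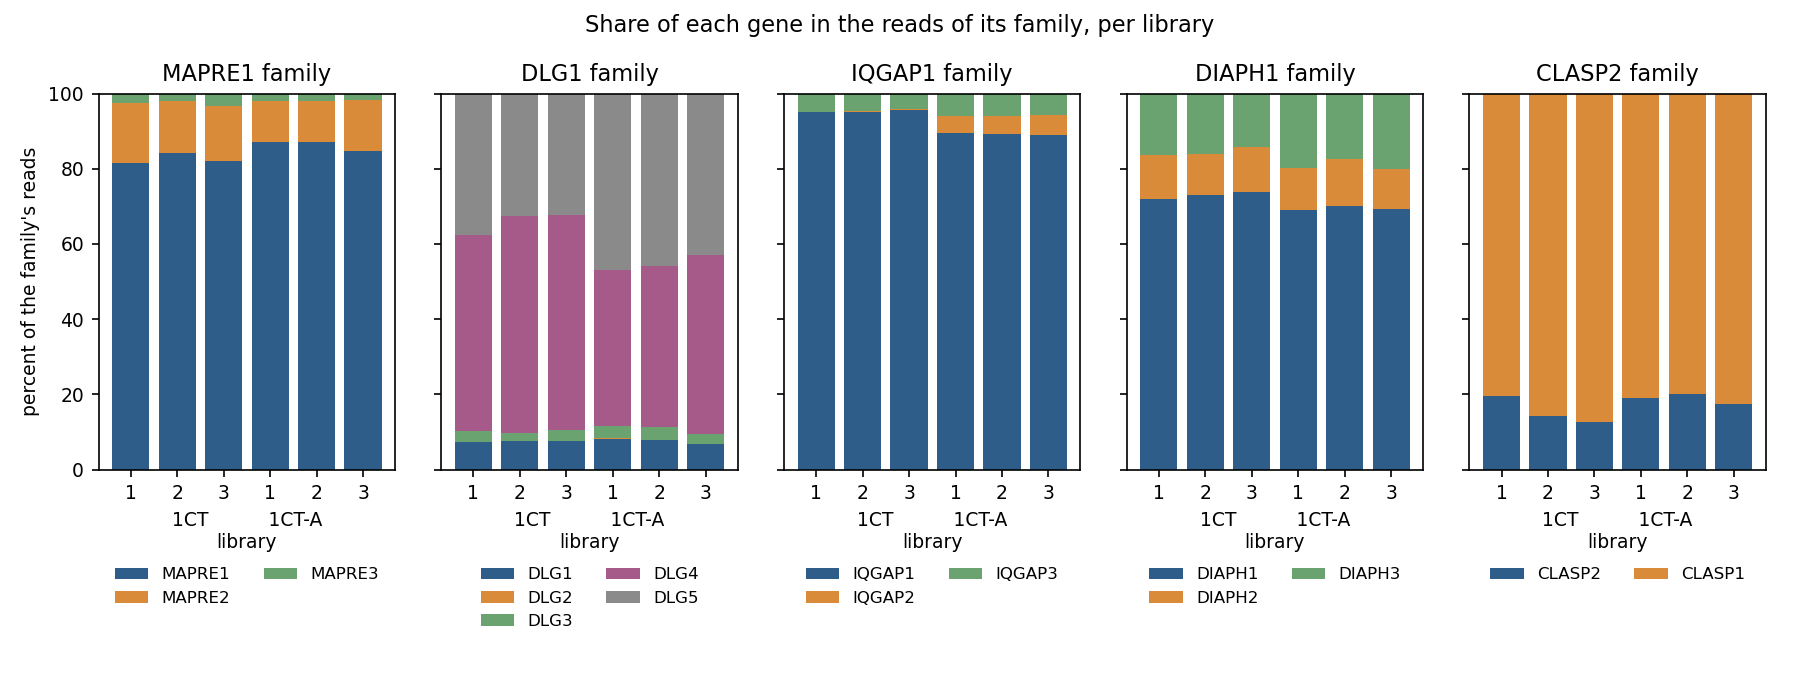
Percent of the reads of each family (vertical axis, 0 to 100) that fell on each of its genes, in the 3 libraries of 1CT and the 3 of 1CT-A, with the partner gene in dark blue at the base. The IQGAP2 segment appears in 1CT-A alone at this scale, the DIAPH1 share shrinks, the MAPRE1 share grows, and in the DLG family DLG4 goes from 55.7% to 44% and DLG5 from 34.2% to 45.3%.

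Across the families, 4 of the 10 relatives tested were called (40.0%, beside 51.0% of all genes), SPATA13 and IQGAP2 higher and DLG4 and DIAPH2 lower. IQGAP2 counts here although it passed the filter only through 1CT-A. Without 1CT replicate 1 this count was 2, while 5961 of 12886 genes were called. DIAPH2 fell by 0.35 on the log2 scale (SE 0.13, edgeR adjusted p = 0.0347), a call lost in 10 of 16 alternatives, among them DESeq2 (adjusted p = 0.0964), the replicate block (0.0617) and each left-out library but 1CT replicate 2 (0.058 to 0.137). DIAPH3, a formin of cell division, was at −0.02 (SE 0.12, adjusted p = 0.879). CLASP1, the more counted CLASP gene, was at 0.09 (SE 0.10, adjusted p = 0.475), and APC2, the relative of APC itself, at −0.37 (SE 0.25, adjusted p = 0.239). DLG3 (−0.15, SE 0.19, adjusted p = 0.526), DLG5 (−0.01, SE 0.07, adjusted p = 0.927) and IQGAP3 (0.29, SE 0.19, adjusted p = 0.217) were not called by edgeR either, and DLG2 had at most 3 counts in any library.

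Other genes of the same machinery give the setting of the partners. Over 89 companion genes in 5 lists, 80 were tested and 41 called (51.2%), 16 higher and 25 lower, next to the background of 51.0%. These calls include AMER1, IQGAP2, PARD6G and TIAM1, which passed the filter through a single line, so their calls are descriptions. In the list of plus-end genes and partners of end-binding proteins, 18 of 26 were called (69.2%, beside 51.0%), 7 higher and 11 lower. The 7 include AMER1, which stood on this list although it is described below as acting at the plasma membrane. KIF2C, a mitotic kinesin that takes microtubule ends apart and is recruited there by EB1, rose from 24.5 ± 2.35 to 53.5 ± 3.35 CPM (SD, n = 3 each; log2 fold change 1.09, SE 0.10, edgeR adjusted p = 1.3e-06), as did the proliferation genes above. AMER1, which brings APC to the plasma membrane, was at 0.805 ± 0.367 and 1.74 ± 0.329 CPM (SD, n = 3 each), and its call as higher was lost in 8 of 14 alternatives, among them DESeq2 (adjusted p = 0.123), the replicate block (0.0541) and the leaving out of 1CT replicate 2 (0.0612) or 3 (0.151), or 1CT-A replicate 1 (0.126) or 3 (0.0901). DST, a large linker of filaments and microtubules, fell by 1.37 on the log2 scale (SE 0.07, edgeR adjusted p = 1.6e-08), and PDE4DIP (myomegalin), which binds EB1 at the Golgi and the centrosome, fell by 1.10 (SE 0.12, adjusted p = 5.5e-06). MAPRE1 thus rose beside binding proteins of EB1 that went in either direction, KIF2C higher and PDE4DIP lower. Of the kinesin-2 motor genes, 2 of 3 tested were called (66.7%, beside 51.0% of all genes), both lower, as given above. So few genes do not set this list apart from the background.

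Of the polarity genes 15 of 21 passed the filter, and 6 were called higher, PARD6G included, and 3 lower (60.0%, beside 51.0% of all genes). PARD6G, an adaptor of the apical PAR complex, was higher in 1CT-A by 2.05 on the log2 scale (SE 0.37). This ranged from 1.75 to 2.86 as single libraries were left out. PARD6G passed the filter, like AMER1, only through its counts in 1CT-A. Its relative PARD6A rose by 0.60 (SE 0.23, adjusted p = 0.0462), a call lost in 10 of 16 alternatives, among them DESeq2 (adjusted p = 0.117), the replicate block (0.0536) and 4 of the 6 left-out libraries, namely 1CT replicates 1 (0.0847) and 2 (0.147) and 1CT-A replicates 1 (0.14) and 3 (0.121). PALS1, the apical scaffold that the files list under its older symbol MPP5, fell by 0.50 (SE 0.08, edgeR adjusted p = 1.2e-04), and PARD3B, a relative of the PAR3 scaffold, fell by 0.49 (SE 0.12, adjusted p = 0.00391). PARD3, the gene of the PAR3 scaffold itself, was called higher (log2 fold change 0.34, SE 0.09, edgeR adjusted p = 0.00751). It was named after its values were seen. DLG1 was thus lower along with some apical scaffolds while others were higher. Of the 26 genes of GTPase switches and actin, 1 was called higher and 7 lower, TIAM1 included (30.8%, beside 51.0%). The single rise was PAK1, a kinase driven by Rac1 and Cdc42, with 25.2 ± 2.4 and 41.1 ± 1.48 CPM (SD, n = 3 each; log2 fold change 0.67, SE 0.10, edgeR adjusted p = 1.0e-04). BAIAP2, an adaptor that bends membranes below Cdc42 and Rac1, fell by 1.27 (SE 0.21, adjusted p = 2.5e-04), beside TIAM1.

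**Figure D5:**
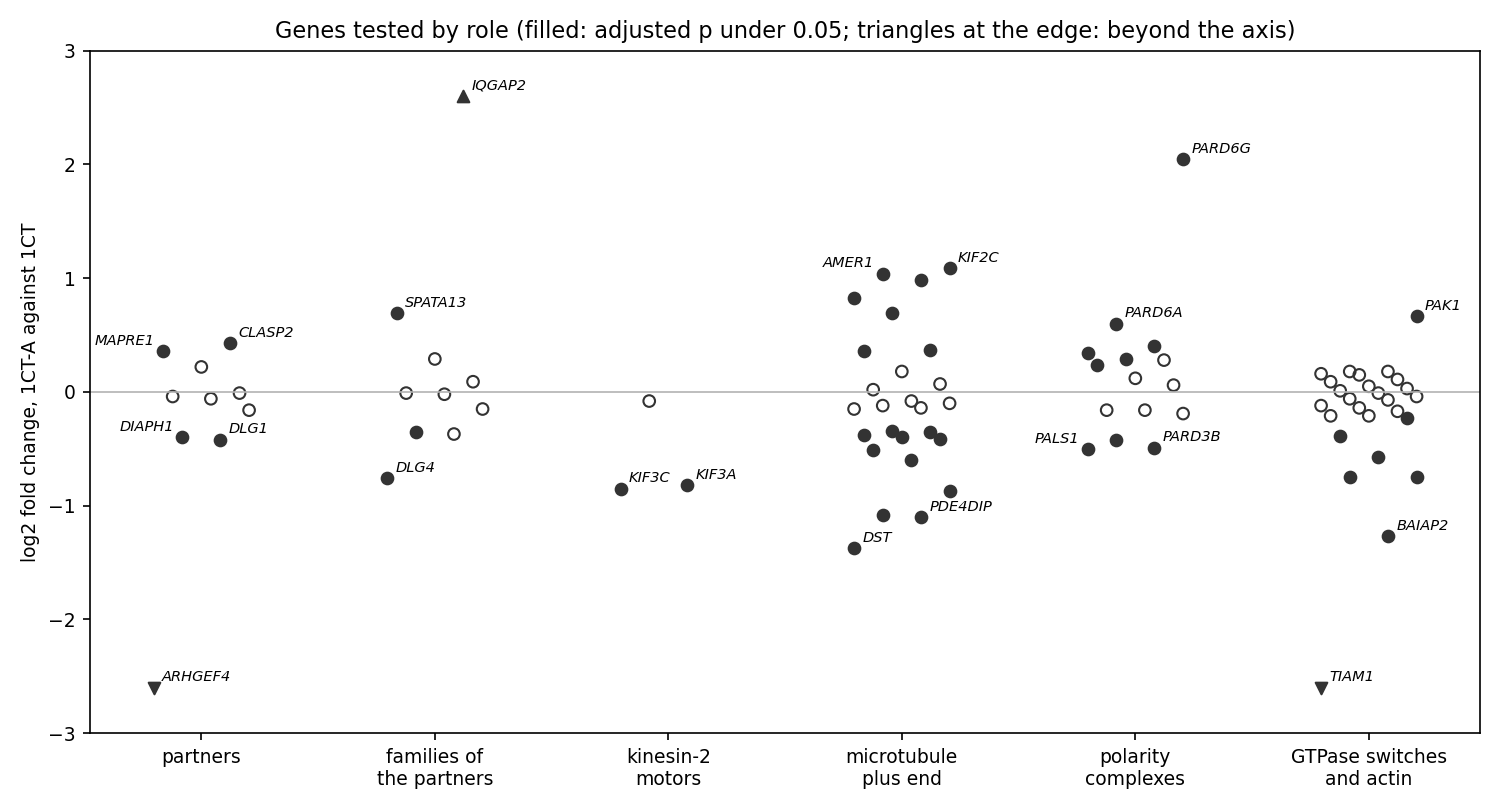
Log2 fold change, 1CT-A against 1CT, of each gene tested among the partners and the companion lists (horizontal axis), filled where edgeR's adjusted p is under 0.05, with triangles for genes beyond the axis. The partners other than ARHGEF4 lie between −0.42 and 0.43, and PARD6G (2.05), KIF2C (1.09) and DST (−1.37) lie farther out. The median absolute change was 0.29 for the partners, ARHGEF4 included, and 0.29 for the companions tested.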

How the data were processed

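Each of the 3 libraries of 1CT and 3 of 1CT-A was deposited as raw counts, whole numbers of reads per gene symbol without normalization or pooling. Per the labels, QuantSeq 3′ libraries were made from 500 ng of Trizol RNA, whereas the study's methods name a spin kit and a microarray service. The submitters' processing notes name Bowtie2, edgeR and the build hg19. The counting tool, annotation and use of strand are not given in the sources used here. Positions and promoter sequences are of GRCh38 and describe the annotation only. In it, genes without a symbol overlap the 3′ ends of APC, MAPRE1, IQGAP2, KIF3A, DLG5 and SPATA13. C19orf25 overlaps the 3′ end of APC2, and DIAPH2-AS1 that of DIAPH2. Reads counted there could belong to either gene.

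The counts were taken as deposited. edgeR 4.0.16 in R 4.3.3 was fitted to all genes with TMM factors (0.975 to 1.02), filterByExpr at a minimum count of 10 and the quasi-likelihood test without a block, and p-values were adjusted over 12514 genes. Fold changes come from this fit, whereas CPM values are scaled to each library's total without TMM. The labels do not say that the numbers pair libraries, so the fit with a replicate block is an alternative only. Deviations of same-numbered libraries from their line's mean correlated at −0.161, 0.22 and −0.139 over 8223 genes. The highest correlation between the lines was 0.345, for 1CT replicate 3 with 1CT-A replicate 1. Whether libraries shared a batch under other numbers was not tested.

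The partner genes, the companion and marker lists and the alternatives were chosen with earlier results of these data known. Named are all partners, APC, all relatives of the partners, and of each other list the 2 largest rises and 2 largest falls among called genes. KIF3B, KIF17, RAC1, CDC42, ARHGEF7, VAV2 and PARD3 were named beyond this rule, after their values were seen. The alternatives were DESeq2 1.42.0 and its size factors, limma-voom (limma 3.58.1), library-size and upper-quartile scaling, other count filters, the block, thinning to 7788679 counts, an adjusted p under 0.01, a per-gene two-tailed test and each library left out. The single-cell data of the study were not analysed here.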

Additional observations from a re-analysis of the deposited data

How the results depend on the processing

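Under 16 alternatives, MAPRE1, DIAPH1 and APC kept their direction and their call. ARHGEF4 was filtered out by thinning and by a minimum of 10 counts in every library. In the other 14 it was again lower, which is a description only, since just its 1CT counts admitted it to the test. The number of partners called was 5 with the replicate block too, the same 5 genes, with 6091 genes called in all, of which 6000 were also called when no block was used. That block changed no call of a partner. After thinning 3 of the 9 partners tested were called, beside 5987 of 12092 genes. At an adjusted p under 0.01, 3 partners, 2 relatives and 4 polarity genes were called, beside 4671 of 12514 genes. Leaving out single libraries gave 2 to 4 called relatives, beside 5364 to 6551 genes called in all. With upper-quartile scaling 5 polarity genes were called, beside 6342 genes in all. The median of the partners was then −0.11, beside −0.063 over all genes. With at least 10 counts in every library, 1009 genes passed the 2-fold rule instead of 1676, with fewer genes tested. The difference in the DLG1 share, 0.06 points, became −0.568 after thinning, −3.52 without DLG4, and ranged from −0.241 to 0.483 as libraries were left out. The log2 fold change of 6 genes without a call, named next, crossed 0. SCRIB reached 0.03 by library size, 0.03 without a filter and 0.04 when thinned, MAPRE2 0.01 without a filter, DLG5 0.03 by library size and 0.04 without a filter, and DIAPH3 0.01 and 0.02. With single libraries left out the ranges were −0.14 to 0.02 (MAPRE2), −0.18 to 0.13 (MAPRE3), −0.08 to 0.05 (SCRIB), −0.01 to 0.21 (CLASP1), −0.02 to 0.02 (DLG5) and −0.08 to 0.06 (DIAPH3). The cause was not tested for these changes. Counting limits the genes under about 3 CPM, MAPRE3, ARHGEF4 and AMER1 among them.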
